A study of Mus musculus with 6 samples.

Results

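The genes described here encode the proteins of the cytosolic ribosome in mouse embryonic fibroblasts (MEFs), cells grown from mouse embryos. They were taken by name: mouse symbols of the form Rpl or Rps with a number, plus Rpsa, Rplp0, Rplp1 and Rplp2, classed as protein-coding in the table and with at least 10 counts in at least 3 libraries, without the Rps6k kinases and Rps27l. The rule gave 81 of the 26532 genes in the table: 31 genes of the small (40S) subunit, 46 of the large (60S) subunit and 4 paralogues of other members (Rpl22l1, Rpl7l1, Rpl6l and Rpl32l). The study asks what ORAI2, a pore subunit of store-operated calcium channels, does in osteogenic differentiation, and its title names BMP9 and the ERK and AKT pathways. The control group was 3 libraries of wild-type MEFs given an adenovirus with green fluorescent protein (GFP). The other group was 3 libraries of MEFs given an adenovirus with ORAI2. All 6 libraries are labelled as under osteogenic differentiation and as mesenchymal stem cells. The labels do not state whether libraries are separate cultures, so p-values may measure technical spread only.

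A ribosome joins a 40S subunit, which reads the mRNA, to a 60S subunit, which forms peptide bonds and passes the chain through an exit tunnel. Each subunit needs its proteins in matched amounts, and cells adjust their synthesis largely at translation. Most ribosomal protein mRNAs start with a run of pyrimidines, the 5′ terminal oligopyrimidine (TOP) motif, through which mTORC1 and the RNA-binding protein LARP1 set how much they are translated. The values here are mRNA levels and do not measure translation.

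Some sequences around annotated starts are shown first, because these mRNAs are known for the TOP motif at their start. The sequences are RefSeq's, on build GRCm38.p6, and 60 of the 81 members had one. The submitters' notes name GRCm39, so these coordinates are not those of the deposited counts. Capitals mark any of 4 pyrimidine words, which are the word CTCTTT, the word CTTTTC, the word CTTTCC and the word CTTCCT, searched on the sense strand only, from 50 bases before to 50 after the annotated start. The words overlap one another in some genes. Of the members with a sequence, 41 (68.3%) held a word, against 19.5% of all 27025 genes in the sequence table. A gene with several annotated starts counted as holding a word if any of them did. Where a gene had a start with a word, that start was taken for the windows and positions below. The windows below are 30 bases each, from 3 genes that rose with ORAI2, 2 that fell, and a pair of paralogues in which none of the words was found.
Rpl12 (higher), chr2:32961702-32961731, plus strand: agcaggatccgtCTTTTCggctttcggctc
Rps12 (higher), chr10:23787183-23787212, minus strand: gccaccgccggcCTTTTCccctgccgccgc
Rpl35 (higher), chr2:39005114-39005143, minus strand: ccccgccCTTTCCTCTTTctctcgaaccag
Rpl15 (lower), chr14:18270969-18270998, minus strand: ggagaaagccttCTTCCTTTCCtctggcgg
Rpl34 (lower), chr3:130730380-130730409, minus strand: ttccctgacgtaCTTCCTgtccggcgccgt
Rpl22l1 (paralogue), chr3:28805498-28805527, plus strand: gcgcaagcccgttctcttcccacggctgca
Rpl7l1 (paralogue), chr17:46782637-46782666, minus strand: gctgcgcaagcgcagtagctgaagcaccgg

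Counting the annotated start as base 1, the marked word nearest to it began at base 1 in Rpl35 and Rpl15, base 2 in Rpl34, base 3 in Rpl12 and base 10 in Rps12. In other members the word lay farther off, as in Rps23 at base 27 or in Rpl22 at -32, ahead of the annotated start, so a word in the searched window is not by itself a TOP motif. Nor does the lack of a word mean the lack of a pyrimidine run. In Rpl22l1 the unmarked run ttctcttccc directly follows the first base of the annotated start. Among members with a sequence, 8 of 12 that rose and 6 of 6 that fell held a word, so words were found in members of both directions. Over the 300 bases around the start, searched on both strands, CCGGAA, a core recognised by ETS-family factors such as GABPA, was in 55% of members and 16.7% of all genes. The SP1-type word GGGCGG was in 61.7% and 38.2%, AAGATGG, found in YY1 sites, in 16.7% and 7.28%, and the TATA-type word TATAAA in 13.3% and 15.7%. These are matches of letters and not evidence of binding, and annotated starts can lie some bases away from the starts used in these cells.

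The libraries were of like depth, with 18526884 to 18844436 counts. Orai2 had 994, 914 and 909 counts with GFP and 67882, 53034 and 45140 with ORAI2, in accordance with the labels. Of 12 fibroblast and mesenchymal markers 10 exceeded 5 CPM (a gene's counts scaled to a common library total) on average, whereas of 6 osteoblast markers (5 in the table) Runx2 and Spp1 did. Summed fibroblast and mesenchymal markers were lower with ORAI2, at 1729 to 1879 CPM against 2955 to 3056 CPM in the GFP libraries, with no overlap. Summed osteoblast markers overlapped, at 553 to 672 and 641 to 762 CPM. Summed macrophage markers lay between 13.2 and 15.6 CPM in the GFP and 5.28 and 7.17 CPM with ORAI2, with Mpeg1 the one gene above 5 CPM, and endothelial markers between 6.42 and 8.88 and between 16.3 and 17.5 CPM, with Vwf the one gene above 5 CPM. Summed neural and glial markers lay between 20.3 and 23.6 CPM with GFP and between 17.9 and 19.0 CPM with ORAI2. Of these, Sox2 and Tubb3 exceeded 5 CPM. Adipocyte markers overlapped, at 43.4 to 51.7 CPM with GFP and 36.9 to 46.3 CPM with ORAI2, with Fabp4 the one gene above 5 CPM. The part of these marker differences in the results below was not tested. In such bulk libraries fewer cells of a type and less RNA per cell cannot be told apart.

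The ribosomal protein mRNAs as a class differed between the groups by about the spread between replicates. Their counts summed to 3.795%, 3.716% and 3.632% of all counts with GFP and to 3.764%, 3.903% and 3.796% with ORAI2. The groups overlapped, and the ratio of the means was 1.029 with a replicate SD of 0.0299. For the 40S genes the sums were 1.518%, 1.476% and 1.44% against 1.511%, 1.574% and 1.54%, and for the 60S genes 2.246%, 2.209% and 2.16% against 2.217%, 2.292% and 2.219%. Both subunits thus overlapped between the groups as well, with ratios of 1.043 ± 0.035 and 1.017 ± 0.0277 (SD). No test is given for these sums, because the members were chosen with results of these data known.

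**Figure D1:**
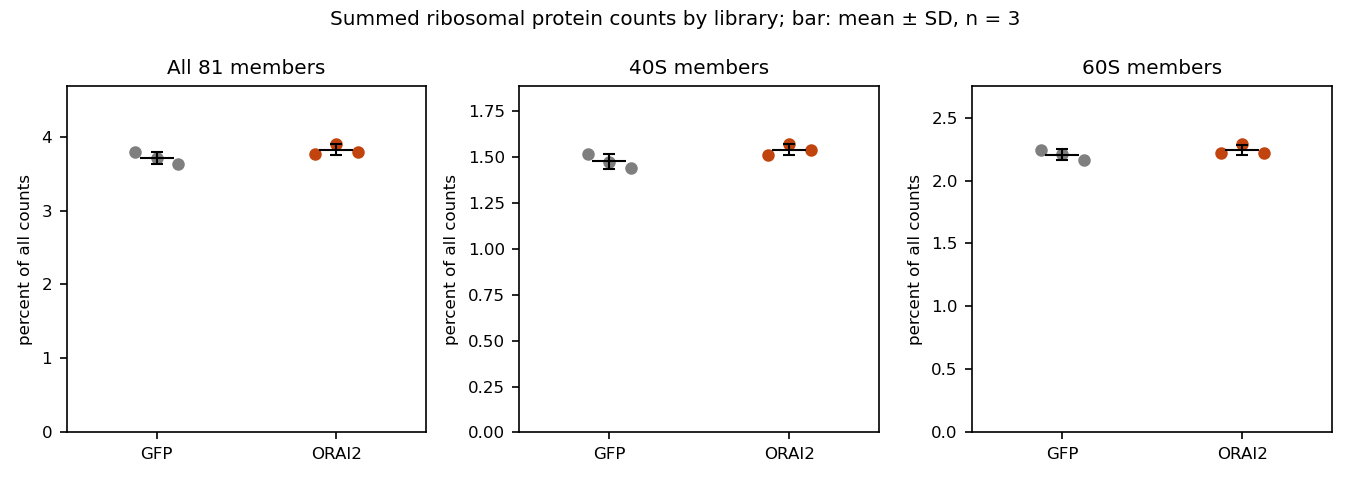
Summed counts of the ribosomal protein genes as a percent of all counts (y axis) in each of the 3 GFP and 3 ORAI2 libraries, for all 81 members, the 40S genes and the 60S genes; points are libraries and bars are the mean ± SD. The ORAI2 mean is 1.029 times the GFP mean for all members, and the groups overlap in every panel.

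In each group most members were highest in the same library. GFP library 1 had the highest level of its group for 58 of the 77 members that are not paralogues, and ORAI2 library 2 for 54 of 77. In GFP library 1 the rise was larger for members with short coding sequences. The 20 with the shortest coding sequence, up to 375 bases, had a median log2 deviation of 0.08 from their group mean. For the 20 with the longest, from 612 bases, it was 0.02. In GFP library 3 these medians were -0.07 and -0.03. The spread between libraries was otherwise small, with a median coefficient of variation of 3.53% in the GFP and 3.1% in the ORAI2 group over the 79 members above 20 CPM.

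By level, Rps2, a protein at the mRNA entry side of the 40S subunit, was highest with 2057 ± 46.5 CPM with GFP and 2159.7 ± 34.8 CPM with ORAI2 (SD, n = 3 each). Rplp0, the scaffold of the ribosomal stalk, followed with 1741 ± 16.9 and 1855 ± 62.4 CPM, and Rpsa came next in both groups. Rpl12 lay below Rpl10, Rpl4 and Rps3a1 in the GFP group and beside Rpl3 in the ORAI2 group (1225 and 1222 CPM). Per kilobase of coding sequence, the middle 50% of 79 members lay between 517 and 1118 CPM in the GFP libraries. Rpl41 was far above at 5945 CPM per coding kilobase, with a coding sequence of 75 bases in an mRNA of 582 bases. At the low end stood Rps6 at 45.8, Rps27 at 119 and Rps15a at 232 CPM per coding kilobase. For these low genes much of the signal was counted on near-identical copies, described further below.

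Differences between the groups were tested with edgeR's quasi-likelihood test over 13764 genes, with Benjamini-Hochberg adjustment over all of them and a threshold of 0.05. All members but Rpl32l were tested, and 17 of 80 rose (21.2%), 9 fell (11.2%) and 54 did not pass. Over all genes tested 20.8% passed as higher and 22.1% as lower, 42.9% together, against 32.5% of the members. The share of rises was near that of all genes and the share of falls was lower, with no test of either difference. The median log2 fold change was 0.05 for the members and -0.00 over all genes tested, and it lay between -0.33 and 0.27 for single members. The median size of the change was 0.082 on the log2 scale, against 0.18 over all genes tested, and 60% of the members moved by less than 0.1 against 30.1% of all genes. Most members are abundant, and of the 2690 genes tested at 100 CPM or more 35.6% passed as higher and 24.1% as lower, 59.7% together, with a median size of 0.136. Beside these abundant genes both shares of the members were lower, again with no test of the difference.

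The split between directions depended on scaling. Upper-quartile scaling gave 13 higher and 11 lower, offsets within 10 bins of transcript GC content 26 and 8, and offsets within 10 bins of transcript length 34 and 9. Of the members with a transcript length, 61 lay in the shortest of 10 length bins, where the median log2 fold change of all genes was -0.043, against 0.009 in the longest bin. Leaving out GFP library 2 left 11 higher and 6 lower, leaving out GFP library 1 left 20 and 5, and leaving out ORAI2 library 3 left 16 and 5. GFP and ORAI2 values did not overlap in 28 tested members with the ORAI2 libraries higher and in 10 with them lower; over all genes tested these shares were 26.6% and 26.4%.

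**Figure D2:**
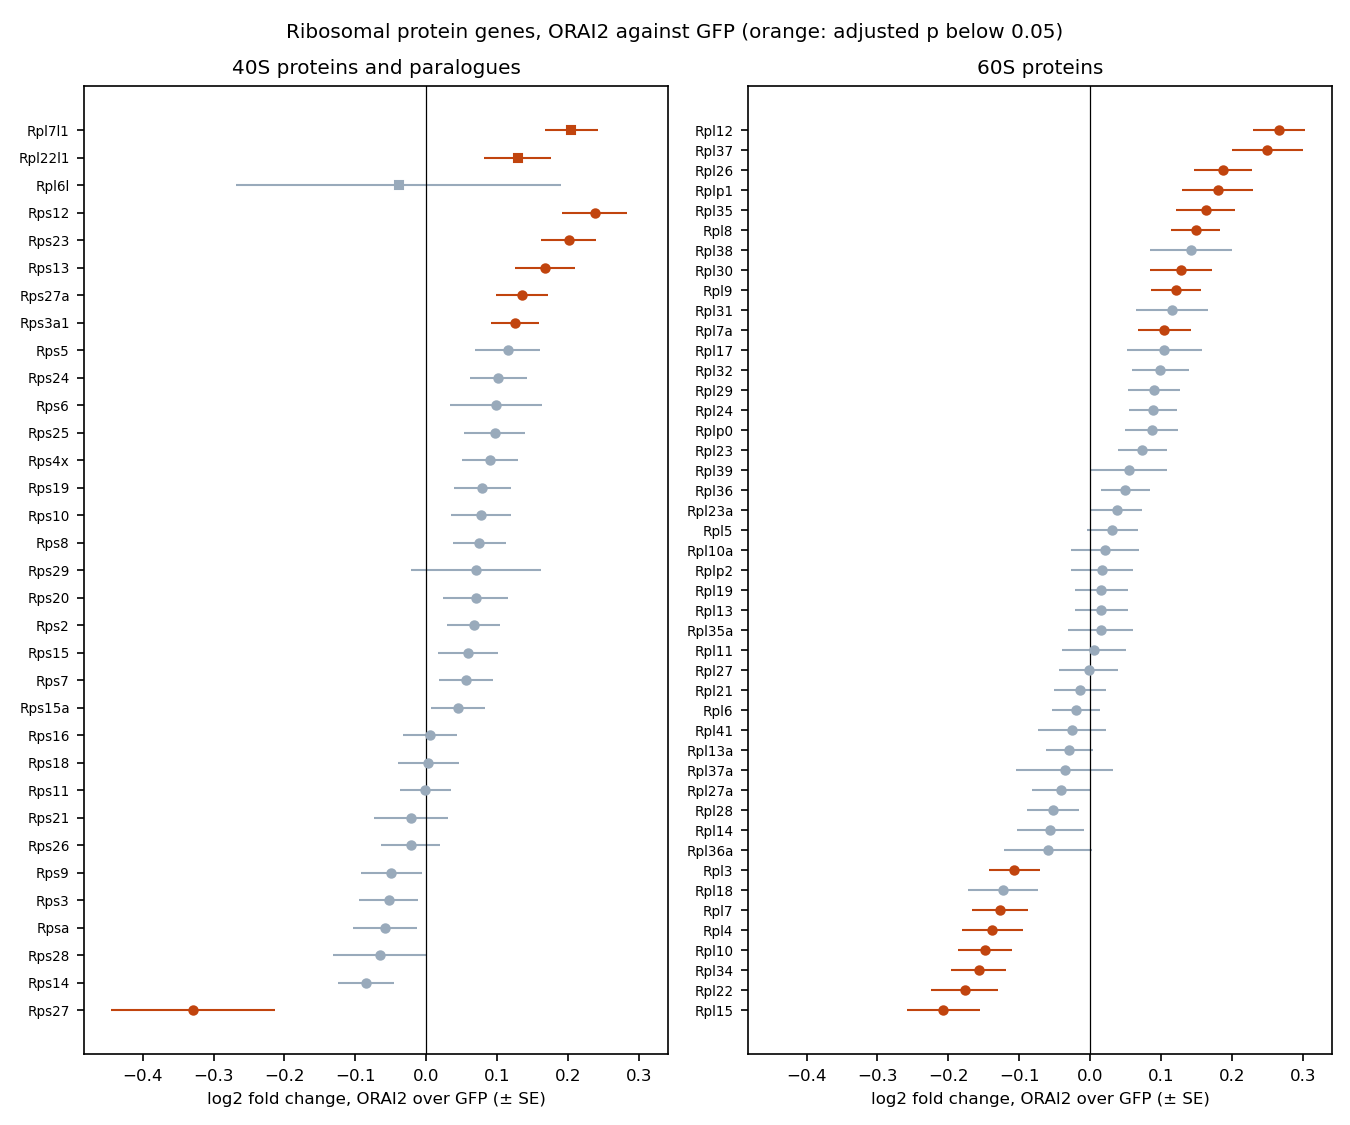
Log2 fold change, ORAI2 over GFP, with its standard error (x axis) for the tested members reported here, 40S genes and paralogues (squares) on the left and 60S genes on the right; orange marks an adjusted p below 0.05. The changes run from -0.33 (Rps27) to 0.27 (Rpl12), and Rps27 is the one 40S member past the threshold that fell.

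In the 40S subunit 6 of 31 tested genes rose (19.4%), 1 fell (3.23%) and 24 did not pass. Over all genes tested 20.8% rose and 22.1% fell. The median log2 fold change of the 40S genes was 0.07. Rps23, which reaches into the decoding centre where codons are read, was at 529, 553 and 541 CPM with GFP and 604, 654 and 613 CPM with ORAI2. The ORAI2 libraries were all higher, by 1.15-fold (adjusted p = 0.00106, edgeR). Rps12, a protein of the beak of the 40S head, had 512, 473 and 472 CPM in GFP and 546, 591 and 587 CPM in ORAI2. Again all ORAI2 libraries stood above the GFP libraries, a 1.18-fold rise with an adjusted p of 0.00108 (edgeR; log2 fold change 0.24 ± 0.046, SE).

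Rps13, a 40S body protein, was at 179, 166 and 168 CPM in GFP and 193, 199 and 186 CPM in ORAI2, 1.12-fold higher without overlap (adjusted p = 0.00627, edgeR). Rps27a, made as a fusion with ubiquitin, went from 503 ± 7.22 to 553 ± 18.2 CPM, and Rps3a1, a platform protein near the mRNA exit, from 1033 ± 15.7 to 1129 ± 15.1 CPM (SD, n = 3). These were rises of 1.1-fold and 1.09-fold, both lost without GFP library 2 (adjusted p = 0.0577 and 0.0731, edgeR).

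By position on the subunit, 3 of 14 head genes rose and none fell (11 did not pass), and 3 of 17 body and platform genes rose and 1 fell. Past the threshold were 21.4% and 23.5%, beside 42.9% of all genes tested. Without ORAI2 library 1 the body and platform rises were 5, and the fall was lost without GFP library 1, ORAI2 library 1 or ORAI2 library 3. The medians were 0.07 and 0.06 on the log2 scale. Rps18 and Rps16, both of the 40S head, had log2 fold changes of 0.00 and 0.01 (adjusted p = 0.96 and 0.927, edgeR). Rps14 had a log2 fold change of -0.08 and did not pass (adjusted p = 0.105).

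Of 46 tested 60S genes, 9 rose (19.6%), 8 fell (17.4%) and 29 did not pass, beside 20.8% and 22.1% of all genes tested. The largest rise was that of Rpl12, which sits at the base of the stalk where translation factors bind. It was at 996, 1013 and 1037 CPM with GFP and 1178, 1241 and 1255 CPM with ORAI2. Every ORAI2 library exceeded every GFP library and the 1.2-fold rise had an adjusted p of 8.46e-05 (edgeR; log2 fold change 0.27 ± 0.037, SE). The call held in all 18 alternative settings.

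Smaller differences were measured for the other stalk genes. Rplp1, an acidic stalk protein, was at 446, 424 and 388 CPM in GFP and 466, 488 and 474 CPM in ORAI2. The groups did not overlap, and the rise of 1.13-fold passed (adjusted p = 0.0112, edgeR). Its partner Rplp2 was at 243, 228 and 220 CPM and at 233, 239.9 and 228 CPM. The Rplp2 groups overlapped (log2 fold change 0.02, adjusted p = 0.789), and its sign turned under upper-quartile scaling. Rplp0, at 1760.5, 1728 and 1736 CPM in GFP and 1843, 1922 and 1799 CPM in ORAI2, was higher in every ORAI2 library but had an adjusted p of 0.0743. It passed in some alternatives, among them DESeq2 (adjusted p = 0.0425) and without ORAI2 library 3 (adjusted p = 0.0494, edgeR).

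Around the exit tunnel 2 of 9 genes rose, 2 fell and 5 did not pass. Past the threshold were 44.4%, near the 42.9% of all genes tested. Rpl26 and Rpl35, both at the rim of the tunnel exit, were the ones that rose. Rpl26 was at 345, 344 and 343 CPM in GFP and 369, 401 and 406 CPM in ORAI2, and Rpl35 at 334, 324 and 315 CPM and 349.5, 367 and 376 CPM. Neither pair of groups overlapped, and the rises were 1.14-fold and 1.12-fold (adjusted p = 0.0025 and 0.00577, edgeR). The 2 that fell were Rpl22, given with its paralogue below, and Rpl4, whose loop lines the tunnel wall. Rpl4 went from 1075, 1075 and 994 CPM to 964, 978 and 922 CPM, 1.1-fold lower (adjusted p = 0.0198, edgeR). The Rpl4 call was lost without GFP library 1, GFP library 2 or ORAI2 library 3 (adjusted p = 0.0735, 0.0944 and 0.0935).

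Further rises were those of Rpl37, a small zinc-binding protein, and Rpl8, a protein near the peptidyl transferase centre. Rpl37 was at 171, 178 and 186 CPM in GFP and 197, 215 and 226 CPM in ORAI2 (1.19-fold, adjusted p = 0.00137, edgeR), and Rpl8 at 858, 849.7 and 851 CPM against 931, 974 and 939 CPM (1.11-fold, adjusted p = 0.00402, edgeR). Both were separated between the groups. Rpl9 and Rpl30 rose 1.09-fold each and Rpl7a 1.08-fold. The Rpl9 call was lost without GFP library 2 (adjusted p = 0.0508). Rpl30 did not pass without GFP library 2, GFP library 3 or ORAI2 library 3 (adjusted p = 0.144, 0.0831 and 0.125). Rpl7a did not pass without GFP library 1, GFP library 2, GFP library 3 or ORAI2 library 2 (adjusted p = 0.055, 0.0736, 0.103 and 0.0894, edgeR).

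Among the falls, Rpl15, a core protein of the 60S subunit, was at 341, 320.2 and 294 CPM and at 280.4, 281 and 269 CPM, 1.15-fold lower (adjusted p = 0.00636, edgeR). GFP library 3 was the lowest of its group and still stood above every ORAI2 library. Rpl10, which joins the 60S subunit late and lies close to the peptidyl transferase centre, was at 1101, 1090.5 and 1072 CPM and at 957, 1023 and 973 CPM, 1.11-fold lower (adjusted p = 0.00677, edgeR). Rpl34 went from 202 ± 2.91 to 181 ± 8.67 CPM, 1.12-fold lower (SD, n = 3; adjusted p = 0.00591, edgeR). These 3 falls and that of Rpl22 held in all 18 alternative settings.

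Rpl3, another protein near the peptidyl transferase centre, was 1.08-fold lower, at 1321, 1334 and 1287 CPM against 1236, 1239 and 1192 CPM (adjusted p = 0.0279, edgeR). The groups did not overlap, but the call was lost without GFP library 1, GFP library 2 or ORAI2 library 3 (adjusted p = 0.0729, 0.12 and 0.123) and with GC or length offsets. Rpl5 and Rpl11 carry the 5S rRNA into the 60S subunit and, when free, bind MDM2, the inhibitor of p53. Rpl5 was at 778, 764 and 761 CPM in GFP and 773, 815 and 771 CPM in ORAI2, and Rpl11 at 319, 301 and 286 CPM and 304, 309.9 and 298 CPM. The libraries of both genes overlapped, with log2 fold changes of 0.03 ± 0.036 and 0.01 ± 0.045 (SE; adjusted p = 0.528 and 0.926, edgeR), and both signs turned in some alternatives.

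**Figure D3:**
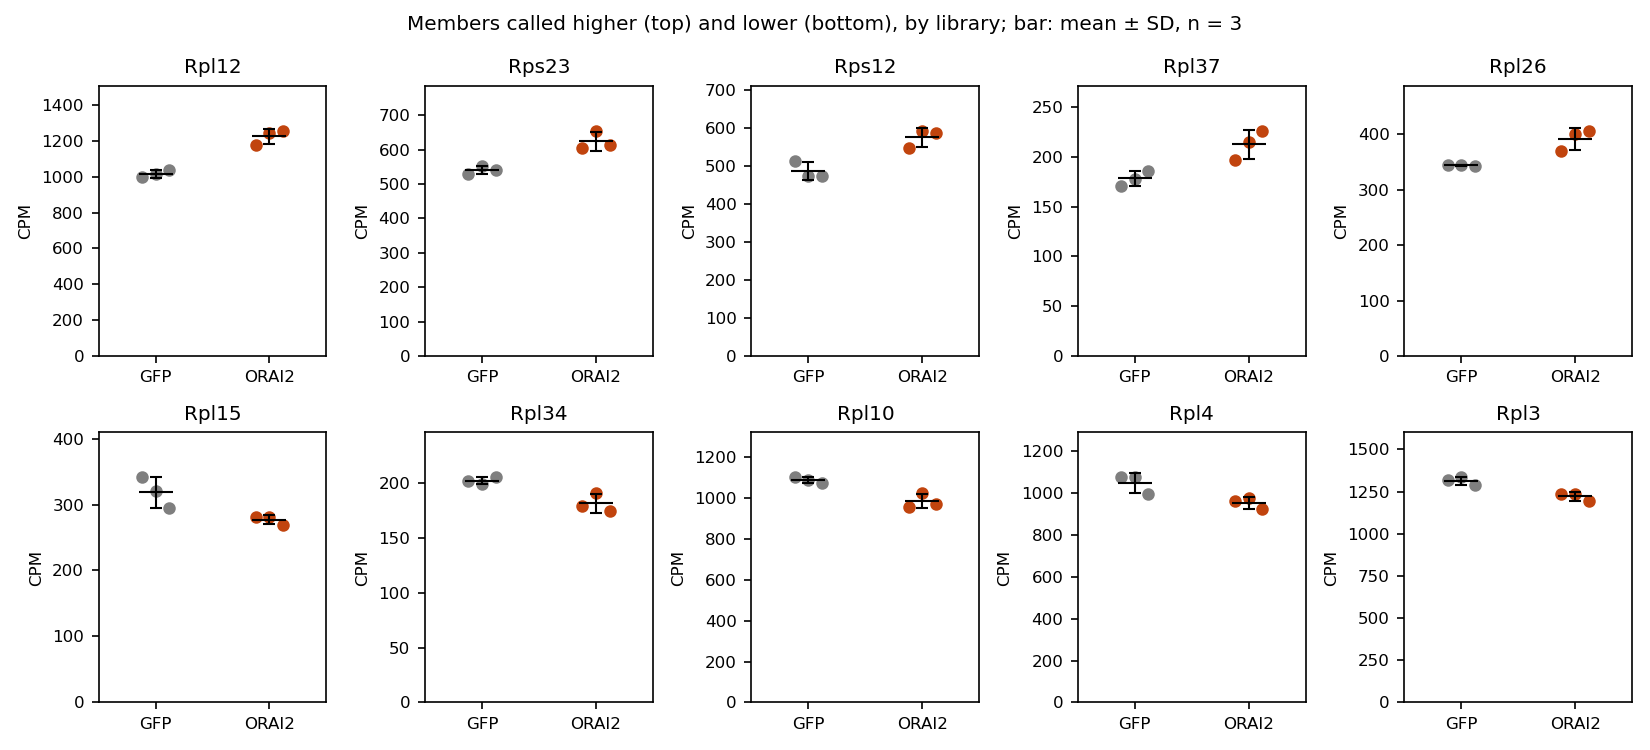
Level in CPM (y axis, from 0) of 5 members that rose (top) and 5 that fell (bottom) in each library; points are libraries, bars the mean ± SD of 3. In each panel the GFP and ORAI2 libraries do not overlap, and the largest difference is 1.2-fold (Rpl12).

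Rpl22l1 and Rpl7l1 rose while their partners Rpl22 and Rpl7 fell. Rpl22 and Rpl22l1 encode interchangeable forms of a 60S protein, and RPL22 is known to restrain expression of Rpl22l1. Rpl22 was at 197, 186 and 174 CPM in GFP and 165, 165 and 164 CPM in ORAI2, 1.13-fold lower (adjusted p = 0.00822, edgeR). Rpl22l1 was at 95.6, 92.7 and 88 CPM and at 95.9, 105 and 102 CPM, 1.09-fold higher (adjusted p = 0.0422, edgeR). Neither gene's groups overlapped, although Rpl22l1 in ORAI2 library 1 was barely above GFP library 1. Rpl22l1 counts as a percent of Rpl22 counts were 48.6, 49.9 and 50.7 with GFP and 58.1, 63.8 and 62.4 with ORAI2. The Rpl22l1 rise passed in only 9 of 18 alternative settings: the adjusted p was 0.0956, 0.148, 0.121 and 0.0891 without GFP library 2, GFP library 3, ORAI2 library 2 or ORAI2 library 3, and 0.277 with GC offsets.

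Rpl7 encodes a 60S protein, and Rpl7l1 a related protein found in precursors of the subunit. Rpl7 was at 551, 543 and 515 CPM in GFP and 494, 502 and 482 CPM in ORAI2, 1.09-fold lower (adjusted p = 0.019, edgeR). Rpl7l1 was at 214, 221 and 234 CPM and at 252, 261 and 259 CPM, 1.15-fold higher (adjusted p = 0.000814, edgeR). Rpl7l1 counts as a percent of Rpl7 counts were 38.8, 40.7 and 45.5 in GFP and 51.1, 52.1 and 53.8 in ORAI2, with no overlap. The rise of Rpl7l1 held in all 18 alternatives, while the fall of Rpl7 was lost without GFP library 1, GFP library 2 or ORAI2 library 3 (adjusted p = 0.0769, 0.0763 and 0.08). Both ratios were looked at after the values were seen and carry no test.

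**Figure D4:**
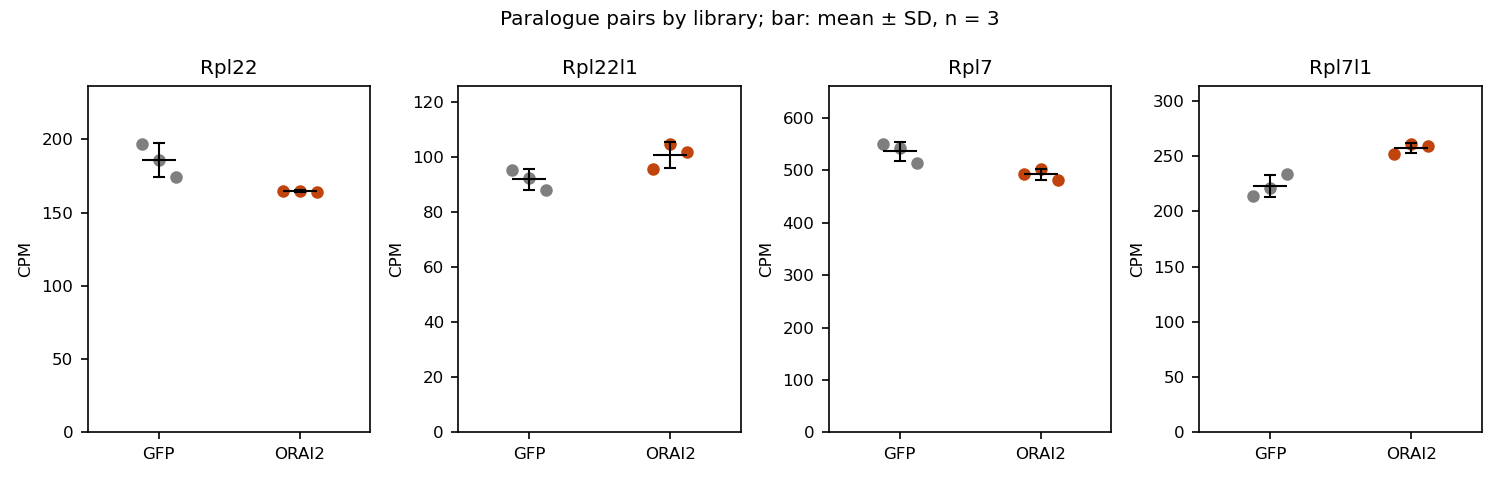
Level in CPM (y axis, from 0) of Rpl22, Rpl22l1, Rpl7 and Rpl7l1 in each library; points are libraries, bars the mean ± SD of 3. Rpl22 and Rpl7 are lower and Rpl22l1 and Rpl7l1 higher with ORAI2, each without overlap.

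The remaining paralogues were scarce. Rpl6l had 47, 30 and 56 counts in GFP and 46, 44 and 39 in ORAI2 (adjusted p = 0.911, edgeR). Rpl32l, just inside the rule with 19, 7 and 7 counts in GFP and 14, 10 and 9 in ORAI2, was under the filter of the fit. Rpl3l, the muscle paralogue of Rpl3 and the gene left outside by the count limit, had at most 2 counts in a library. Differences in Rpl32l or Rpl3l could not be detected at this depth.

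Near-identical copies limit what can be said of some members. Of 79 members with a coding sequence in GENCODE M21, 75 had another annotated transcript with at least 95% identity over at least 80% of the coding sequence, and 37 had such a copy in the table. In 11 members the copies held over 10% of the joint counts, so their own levels are uncertain. Rps6, the 40S protein phosphorylated by S6 kinases, had 34.2 CPM of its own in GFP and 36.7 CPM in ORAI2. Copies, chiefly Rps6-ps4, held 95.5% of the joint counts. Whether those counts came from the copies or from reads of Rps6 was not tested. Summed with its copies Rps6 was at 792, 799 and 768 CPM in GFP and 788, 794 and 776 CPM in ORAI2. The joint level overlapped fully, with an adjusted p of 0.938 (edgeR).

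Rps27, a zinc-binding 40S protein and the only 40S member that fell, showed the largest fall of any member. It was at 36.8, 27.9 and 25.6 CPM in GFP and 22.3, 25.6 and 24.3 CPM in ORAI2, 1.26-fold lower (adjusted p = 0.0367, edgeR). GFP library 1 alone stood well apart, and without it the log2 fold change was -0.15 (adjusted p = 0.149). The call was also lost without ORAI2 library 1 or ORAI2 library 3 (adjusted p = 0.126 and 0.076). Its copy Rps27rt held 82.7% of the joint counts. Together they were at 175, 152 and 159 CPM in GFP and 154, 152 and 145 CPM in ORAI2, a joint log2 fold change of -0.11 that did not pass (adjusted p = 0.0914, edgeR).

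Other calls among these members were kept when copies were added. The joint log2 fold changes were -0.26 for Rpl15 (adjusted p = 0.00195), -0.18 for Rpl34 (adjusted p = 0.00404) and 0.22 for Rpl37 (adjusted p = 0.0023, edgeR). For Rpl15 the copy Gm10224 itself fell, from 193 to 151 CPM (log2 fold change -0.36, adjusted p = 0.000557, edgeR). Rpl21, Rpl31, Rps15a, Rpl14, Rpl17 and Rps25 did not pass with or without their copies. With copies added for all members 16 rose and 8 fell.

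**Figure D5:**
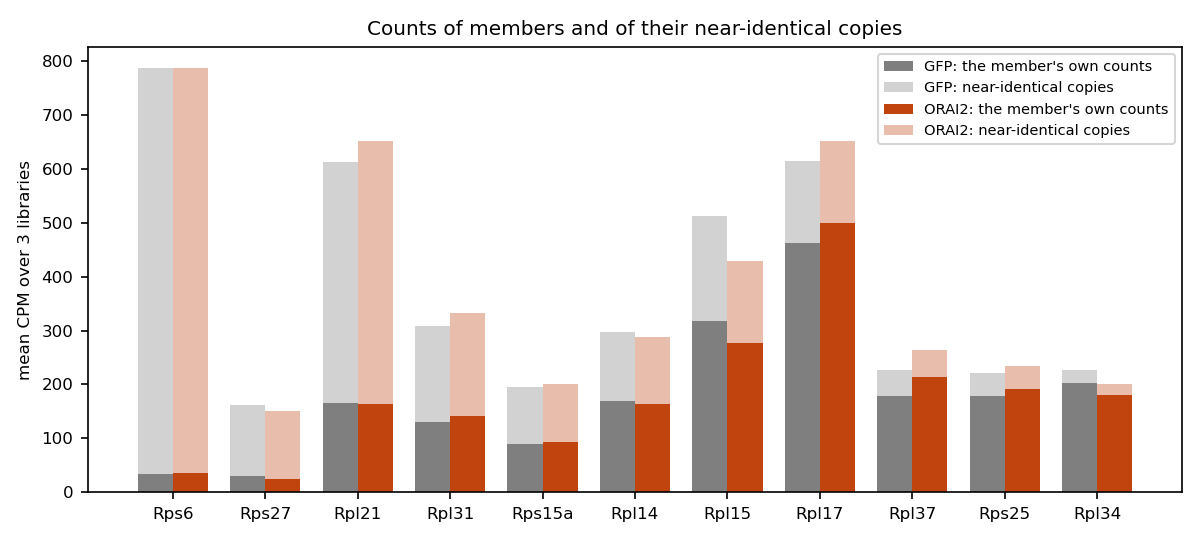
Mean CPM over 3 libraries (y axis) of 11 members (x axis, by the share held by copies) in the GFP (grey) and ORAI2 (orange) groups, with the member's own counts in full colour and those of its near-identical copies in pale colour stacked on top. Copies hold 95.5% of the joint counts for Rps6 and 10.5% for Rpl34.

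Of 20 members whose human counterparts are mutated in Diamond-Blackfan anaemia, a failure of red cell production, 3 rose (Rpl26 and Rpl35 among them), 2 fell (Rpl15, Rps27) and 15 did not pass. Past the threshold were 25%, beside 42.9% of all genes tested. The rises became 5 without ORAI2 library 1, and the falls became 1 without GFP library 1, ORAI2 library 1 or ORAI2 library 3. Rps19, the gene most often affected, was at 332, 326 and 324 CPM in GFP and 345, 364 and 331 CPM in ORAI2, with overlapping groups (adjusted p = 0.129, edgeR). Of 6 ribosomal protein genes outside the naming rule, 1 fell and 5 did not pass. That is 16.7% past the threshold, beside 42.9% of all genes tested. The one that fell was Fau, which encodes a ubiquitin-like fusion of a 40S protein, at 251 ± 13.9 and 228 ± 4.52 CPM (1.1-fold lower, adjusted p = 0.0217, edgeR). The Fau call was lost without GFP library 1, GFP library 2, ORAI2 library 1 or ORAI2 library 3 (adjusted p = 0.0928, 0.0938, 0.0522 and 0.0825). In this list 2 genes fell without GFP library 3 or ORAI2 library 2. Rack1, a scaffold protein on the 40S head, did not pass (0.06 on the log2 scale, adjusted p = 0.195, edgeR).

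Ribosomes of mitochondria are built from a separate set of proteins, and of 78 such genes 9 rose, 7 fell and 62 did not pass. In all 20.5% passed, beside 42.9% of all genes tested. Mrpl19 was 1.25-fold higher and Mrpl34 1.28-fold lower (adjusted p = 0.00069 and 0.00184, edgeR). The median log2 fold change of these mitochondrial genes was -0.02, beside 0.05 for the cytosolic members. No test of either difference was made.

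Newly made ribosomal proteins are bound by chaperones and carried into the nucleus by importers. Among 16 genes listed under these headings, 11 rose, 1 fell (2 without GFP library 3) and 4 did not pass. Their median log2 fold change was 0.17. The share past the threshold was 75%, beside 42.9% of all genes tested and 59.7% of those at 100 CPM or more. Neither difference was tested. Heatr3, which carries RPL5 and RPL11 into the nucleus, rose from 95.5 ± 1.64 to 119 ± 1.87 CPM (1.24-fold, adjusted p = 2.08e-05, edgeR), and the importins Ipo4 and Ipo5 rose 1.2-fold and 1.18-fold. Btf3, a subunit of the nascent-chain complex, fell 1.19-fold from 300.5 ± 20.6 CPM (adjusted p = 0.00155, edgeR). It is counted again among the genes with TOP mRNAs below. Rpl5 and Rpl11, the cargo of Heatr3, did not pass, as given above.

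Of 20 translation factors and other genes with TOP mRNAs, 6 rose, 4 fell and 10 did not pass. Past the threshold were 50%, beside 42.9% of all genes tested and 59.7% of those at 100 CPM or more. Falls numbered 2 without GFP library 2 and 7 without GFP library 3. The elongation factor genes Eef1b2 and Eef1g rose 1.14-fold and 1.11-fold, while Eef2, the translocase, was 1.1-fold lower (adjusted p = 0.000751, 0.00287 and 0.0127, edgeR). The Eef2 call was lost without GFP library 2 or ORAI2 library 3 (adjusted p = 0.0609 and 0.057). Of 30 initiation factors, 13 rose (43.3%), 2 fell (6.67%) and 15 did not pass, beside 20.8% higher and 22.1% lower over all genes tested. Among genes tested at 100 CPM or more, 35.6% passed as higher and 24.1% as lower. No fall was left without GFP library 1 or GFP library 2, and 1 was left without any of the ORAI2 libraries taken singly. Eif4g1 and Eif4e, parts of the cap-binding complex, rose 1.23-fold and 1.2-fold (adjusted p = 2.85e-05 and 6.65e-05, edgeR). Of 20 cytosolic aminoacyl-tRNA synthetases 8 rose, 2 fell and 10 did not pass, again 50% past the threshold. Rars rose 1.38-fold and Qars was 1.28-fold lower, and 1 fall was left without GFP library 2 or ORAI2 library 3.

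Of 24 genes of mTORC1 and of TOP mRNA control, 8 rose, 6 fell and 10 did not pass. The share past the threshold was 58.3%, beside 42.9% of all genes tested and 59.7% of those at 100 CPM or more. Falls numbered 2 without ORAI2 library 1, where Mtor no longer passed (adjusted p = 0.0533, edgeR). Cnbp, which binds TOP mRNAs, went from 633 ± 16.7 to 832 ± 13.8 CPM, a 1.31-fold rise (adjusted p = 2.33e-06, edgeR). Deptor, an inhibitor of mTOR, was 1.6-fold lower from 9.14 ± 0.467 CPM and Mtor 1.12-fold lower (adjusted p = 0.000354 and 0.0097, edgeR), and Larp1 did not pass (0.06 on the log2 scale, adjusted p = 0.303). Of 13 tested transcription factors that bind ribosomal protein gene promoters, 7 rose (53.8%), 1 fell (7.69%) and 5 did not pass. Over all genes tested 20.8% rose and 22.1% fell, and at 100 CPM or more 35.6% and 24.1%. Rises numbered 4 without GFP library 1 or without GFP library 2. Gabpa rose 1.17-fold and Sp1 was 1.14-fold lower (adjusted p = 0.000153 and 0.000995, edgeR). Myc, a driver of ribosome production, went from 186 ± 4.79 to 291 ± 11.1 CPM, a 1.56-fold rise (adjusted p = 6.94e-08, edgeR), beside a ratio of 1.029 for the summed ribosomal protein mRNAs.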

How the data were processed

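The authors deposited 1 table with whole-number counts and TPM per gene for 6 libraries, per the file headers. HISAT2 2.0.4, Salmon 1.4.0 and GRCm39 are named in the submitters' processing notes; what each did, the gene annotation and strand handling stay not given in the sources used here. TPM as the authors deposited it disagreed with equally named count columns and entered no comparison. Entrez numbers were matched to RefSeq symbols (GRCm38.p6; 25631 of 26532). Gene classes stood 1 column out of step with the header. Levels are CPM over all counts. Tests used edgeR 4.0.16 in R 4.3.3 (TMM, filterByExpr with a minimum count of 10, 13764 genes). Errors of fold changes are derived from the F statistic. Copies were found with BLAST 2.17.0 on GENCODE M21.

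Alternatives were RLE, upper-quartile or no scaling, no filter or 5 CPM in 3 libraries, DESeq2 1.42.0, limma-voom (limma 3.58.1), robust dispersion, a replicate block and each library left out. Adding copies and offsets in 10 bins of GC or length were chosen after seeing the data. The members, the 14 gene lists and the rule for named genes were chosen with earlier results of these data known. The rule took Orai2, the 10 called members per direction with the smallest p, the 5 most abundant, Rpl5, Rpl11, the stalk genes, paralogues and up to 3 called genes per list and direction; other called members and those given as examples of unchanged calls were named after their values were seen. The fit was tested on simulated data. Some members and listed genes are counted in the totals but not reported here by name.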

Additional observations from a re-analysis of the deposited data

Results flagged for a closer look

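Among the 37 tested near-identical copies of members, which are no members themselves, 2 passed as higher with ORAI2 and 2 as lower. Over all genes tested 20.8% passed as higher and 22.1% as lower, so calls were rarer among the copies, with no test of the difference. Rps12-ps10, a copy of Rps12, had 7, 10 and 9 counts in GFP and 10, 22 and 25 in ORAI2 (log2 fold change 1.13, adjusted p = 0.0314, edgeR). Gm15793, a copy of Rpl12, had 34, 28 and 31 counts in GFP and 49, 37 and 54 in ORAI2 (log2 fold change 0.59, adjusted p = 0.0378, edgeR). Neither call held under DESeq2 (adjusted p = 0.0825 for Rps12-ps10 and 0.114 for Gm15793). Without single libraries the edgeR adjusted p for Gm15793 was above the threshold except without ORAI2 library 2 (the others gave 0.0511 to 0.138), and for Rps12-ps10 except without ORAI2 library 1 (0.0597 to 0.134). The copies that were lower were Gm10224, given with Rpl15 above, and Rpl13-ps6, with 18, 11 and 33 counts in GFP and 11, 11 and 4 in ORAI2 (log2 fold change -1.24, adjusted p = 0.0441, edgeR). The Rpl13-ps6 groups overlapped, and without any 1 library other than GFP library 2 its adjusted p was 0.0631 to 0.231. The parent genes Rps12 and Rpl12 rose as well, and reads of a parent and its copy may be shared between the rows, which was not tested. The unused TPM columns held Orai2 at 1429.5 TPM in the column named ORAI2-1 but at 36.33 TPM in that named ORAI2-3, beside 24.83, 24.86 and 38.19 TPM in those named GFP. Summed ribosomal protein TPM was 14.4%, 14.1% and 13.9% of the total in the columns named GFP-1 to GFP-3 and 15%, 14.8% and 14.8% in those named ORAI2-1 to ORAI2-3.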

How the results depend on the processing

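Of the 17 rises 10, and of the 9 falls 5, were called in all 18 alternatives, and no called member was called in the opposite direction in any of them. The number of members that rose went to 26 with GC offsets and 34 with length offsets, and the cause was not tested; leaving out 1 library gave 11 to 23 higher and 5 to 11 lower. The replicate block gave 24 higher and 10 lower. Same-numbered libraries correlated at 0.285, 0.0458 and 0.291 in their deviations from the group means. Differently numbered libraries correlated at -0.345 to 0.0784, and GFP library 2 correlated best with ORAI2 library 3 (0.0784). The labels do not say what the numbers mark, and whether they pair the libraries was not settled. Signs turned, with no call, for Rpl5 (-0.0031 with GC offsets), Rpl11 (-0.01 with upper-quartile scaling, -0.04 and -0.0014 without GFP replicate 3 or ORAI2 replicate 2), Rplp2 (-0.0035 with upper-quartile scaling, -0.02 without GFP replicate 3) and Rpl6l (0.01 without GFP replicate 1, 0.16 without GFP replicate 3, 0.03 without ORAI2 replicate 3, 0.01 with limma-voom). With 1 library left out in turn, the log2 fold change ran from -0.04 to 0.05 for Rpl11, from -0.02 to 0.06 for Rplp2 and from -0.26 to 0.16 for Rpl6l. The ratio of the summed levels lay between 1.017 and 1.04 over all its alternatives. With 3 libraries a group, members that did not pass may still differ.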
